A study of Xenopus laevis with 9 samples.

Results

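Genes that the annotation names only provisionally are easily passed over, and 33 of them changed at least 2-fold when anterior pieces of *Xenopus laevis* embryos were treated with retinoic acid (RA). They are rows of the count table that carry a LOC identifier and a symbol in brackets marked as provisional. The set holds all such rows, other than provisional hox genes, whose counts per 10⁶ (CPM) plus 0.5 were at least 2 times higher, or at most 0.5 times as high, with RA as with the solvent in each of 3 number-matched pairs of libraries, with a mean of at least 1 CPM in 1 of the groups. Of 6709 eligible rows among 58413 in the table, 23 were higher and 10 lower with RA. The genes were thus chosen by their RA and DMSO values, and every RA value below is a description. The 4-oxo-RA libraries took no part in the choice, but they are compared with the same DMSO libraries.

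The tissue was the front part of wild-type embryos from 3 females, separated at stage 12.5 of Nieuwkoop and Faber (NF), when gastrulation ends, and harvested at NF stage 15, in the neurula. Each treatment has 3 RNA-seq libraries. The groups received 1 µM RA, 10 µM 4-oxo-RA or dimethyl sulphoxide (DMSO, the solvent, also labelled 10 µM) during that interval. The question the series poses is which genes each retinoid regulates there, and the retinoid doses differ. No allele, transgene or other agent is labelled, and the labels do not say which female gave which sample or whether samples of a group were separate cultures, so a p-value here reflects sample-to-sample spread that may be technical.

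RA is a vitamin A derivative that enters the nucleus and binds receptors (RAR, paired with RXR) sitting on DNA, which switch target genes on when RA is bound. In vertebrate embryos it is made mainly in trunk mesoderm and gives hindbrain and neck levels their identity, while the forebrain develops where RA is broken down. An excess of RA during neurulation is known to reduce head structures in frogs. 4-oxo-RA is an oxidised form of RA that carries an added oxo group on the ring, and it can also activate RARs.

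Library totals ran from 9404644 to 20883648 counts. Marker lists were compared with the tissue label. In DMSO the summed level of 10 rows for anterior neural plate genes (otx2, six3, rax, hesx1, fezf2) was 855 to 960 CPM and that of cement gland genes 3810 to 5880 CPM. The anterior neural plate sum was lower with the retinoids, at 411 to 600 CPM in RA and 503 to 648 CPM in 4-oxo-RA. Of its 9 tested rows 7 fell with RA and 2 with 4-oxo-RA (edgeR adjusted p below 0.05), beside 0.456% and 0.111% of all genes. With the block 7 fell with either, beside 3.17% of all genes for RA and 1.31% for 4-oxo-RA. Neither rax row passed without the block (log2 −0.22 and −0.11 with RA). Cement gland genes summed to 3450 to 3850 CPM in RA and 3370 to 3810 CPM in 4-oxo-RA. Of their 5 tested rows 1 fell with RA (pitx1.L) and 0 with 4-oxo-RA. With the block 3 and 2 fell, beside the same shares of all genes. The part of these changes in the values of the lower genes was not tested. Genes of posterior mesoderm and tailbud summed to 31.9 to 60.4 CPM, and 10 of 17 rows for posterior hox genes had no count in any library. Muscle genes (myod1, myf5, actc1) were uneven, at 307, 108 and 25.1 CPM in DMSO replicates 1, 2 and 3. Libraries with the same replicate number resembled one another across treatments, so where a block on that number changes a call its p is given too. It is also given where a call ended when single libraries were left out, which was done only in the fit without the block. In bulk tissue, fewer cells of a type and less RNA per cell cannot be told apart.

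Retinoid-responsive genes with established names give the scale. Of 21 tested rows for retinoid metabolism and binding genes, 7 rose and 0 fell with RA in edgeR's quasi-likelihood test at an adjusted p below 0.05, and 6 rose and 0 fell with 4-oxo-RA. With the replicate block the counts were 12 higher and 3 lower for either retinoid. Of all genes 1.22% rose with RA and 0.625% with 4-oxo-RA, and 0.456% and 0.111% fell. With the block 3.5% and 2.05% of all genes rose, and 3.17% and 1.31% fell. The summed level of this list was 1060 to 1280 CPM in DMSO, 5310 to 5620 in RA and 3510 to 4270 in 4-oxo-RA. Of 16 tested rows for retinoid receptors and coregulators, 2 rose with RA and 1 with 4-oxo-RA. With the block 4 rose with either, beside the same shares of all genes that rose.

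All 33 genes passed the filter on low counts. The filter asks for enough counts in some of the libraries, so a gene could pass through the group where it was high. Scarce genes such as plaur LOC108696904 and cdh26 passed through retinoid libraries only, and trpm1 through DMSO libraries only. The 23 higher genes had log2 fold changes with RA from 1.33 to 4.53 (median 2.18), and the 10 lower ones from −5.40 to −1.37 (median −1.90), beside a median of −0.0001 over 20811 genes tested. In 21 of the 23 and 9 of the 10 the 3 RA libraries were clear of the 3 DMSO libraries, which held for 6.02% (higher) and 8.04% (lower) of the 1878 eligible rows at 1 CPM or more. In the edgeR fit 16 of the 23 passed as higher and 4 of the 10 as lower, beside 1.22% and 0.456% of all genes. The rule used these values, so nothing is read from the counts. Among rows at 1 CPM or more, the rule itself was met by 1.22% of the 1878 eligible rows in the upward and 0.532% in the downward direction, against 0.937% and 0.549% of 13664 rows with an established symbol. The sets are unlike, since the established rows include hox genes. With the provisional hox rows kept, the shares were 1.54% and 0.531% of 1885 provisional rows.

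Genes nearest the threshold show where it fell. Just inside on the high side were cd69, with ratios of 8.82, 2.07 and 7.38 in pairs 1, 2 and 3, and trex2, with 2.39, 2.60 and 2.13. Just outside were phc2 (LOC108705072), at 1.97, 2.81 and 2.79, and znf503 (LOC108703372), at 2.03, 2.20 and 1.92. On the low side abcb5 (0.288, 0.477 and 0.423) and actn3 (0.424, 0.205 and 0.476) were just inside. There hk1 (LOC108697444) at 0.493, 0.504 and 0.502 and dclk2 (LOC108699412) at 0.515, 0.419 and 0.497 just missed it.

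**Figure D1:**
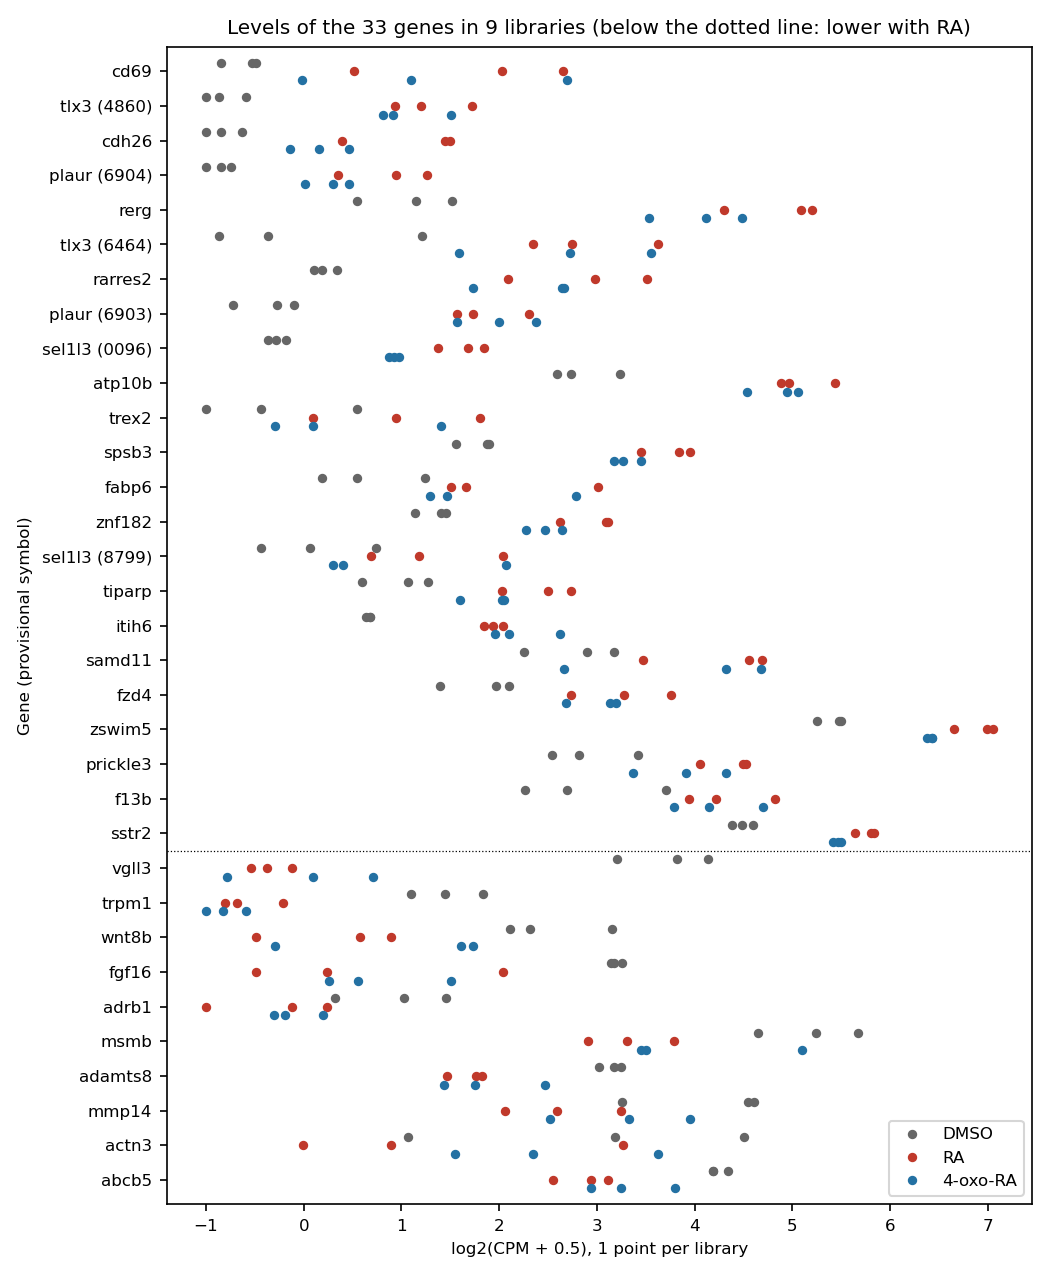
Level of each of the 33 genes in the 9 libraries, as log2 of CPM plus 0.5, 1 point per library, coloured by treatment and ordered by the log2 change with RA; genes with 2 rows carry the last 4 digits of their identifier. All blue 4-oxo-RA points lie above all grey DMSO points in 19 of the 23 higher genes and below them in 7 of the 10 lower genes; in the others they overlap.

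Below, CPM are given for replicates 1, 2 and 3 in that order, log2 changes are edgeR estimates with their SE, and each adjusted p for 4-oxo-RA against DMSO is adjusted over all 20811 genes. Among higher genes with a transcriptional role are a pair of rows provisionally named tlx3, a homeobox gene of sensory neurons in mice. Separate rows tlx3.L and tlx3.S exist, so the provisional symbol of this pair may be wrong, and the role may not be theirs. Separate L and S rows also exist for sstr2, spsb3, sel1l3, tiparp and cdh26. For rerg, adamts8 and plaur a separate L row exists, although their provisional rows lie beside other L genes in the RefSeq assembly v10.1. The provisional symbols of these rows may therefore be wrong too. Roles given for any of the genes are those of the provisional symbol, and whether a row is that gene was not tested. Row LOC108706464 stood at 1.81, 0.0479 and 0.274 CPM in DMSO, at 11.8, 4.58 and 6.20 CPM in RA and at 11.2, 2.51 and 6.11 CPM in 4-oxo-RA. Replicate 1 was highest in each treatment, and neither retinoid group overlapped with DMSO. The change was 3.73 ± 0.91 with RA and 3.54 ± 0.91 with 4-oxo-RA (edgeR adjusted p = 0.197, and 1.17e-04 with the replicate block). The other row, LOC108704860, was nearly silent in DMSO, with 4 counts over the 3 libraries (0, 0.0479 and 0.164 CPM). It reached 2.80, 1.79 and 1.41 CPM with RA and 2.35, 1.38 and 1.26 CPM with 4-oxo-RA, and its log2 change with 4-oxo-RA was 4.24 ± 0.71 (edgeR adjusted p = 0.0190, and 0.00223 with the block). Leaving out DMSO replicate 1 or 2, or the first 4-oxo-RA library, ended that call (edgeR adjusted p of 0.0624 to 0.131).

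The next 3 higher genes encode putative DNA-binding or chromatin-associated proteins. The most deeply counted was zswim5, a SWIM-type zinc finger gene, at 37.5, 44.6 and 43.9 CPM in DMSO, 100, 132 and 127 CPM in RA and 85.5, 85.4 and 82.5 CPM in 4-oxo-RA. The 3 treatments formed separate ranges, with 4-oxo-RA in the middle. The changes were 1.55 ± 0.13 with RA and 1.04 ± 0.13 with 4-oxo-RA (edgeR adjusted p = 0.00395). For znf182, a C2H2 zinc finger gene, the levels were 1.70, 2.15 and 2.25 CPM in DMSO, 8.05, 8.17 and 5.64 CPM in RA and 5.02, 5.75 and 4.34 CPM in 4-oxo-RA. It rose by 1.32 ± 0.26 with 4-oxo-RA (edgeR adjusted p = 0.0470, and 0.00877 with the block). Without the block the call did not hold when any 1 of the 9 libraries was left out (edgeR adjusted p from 0.0655 to 0.199). A separate established row named znf182 was more abundant, with means of 21.9 CPM in DMSO, 22.1 CPM in RA and 23.1 CPM in 4-oxo-RA. Log2 changes of that row were 0.06 with RA and 0.11 with 4-oxo-RA, and neither passed with or without the block. The gene samd11, whose product is a SAM-domain protein that acts in mouse photoreceptors, was at 8.51, 6.94 and 4.27 CPM in DMSO, 25.3, 23.0 and 10.6 CPM in RA and 25.1, 19.5 and 5.85 CPM in 4-oxo-RA. Its 4-oxo-RA replicate 3 lay within the DMSO range, and the change was 1.40 ± 0.48 (edgeR adjusted p = 0.463, and 0.00192 with the block).

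Signalling genes that were higher included a small GTPase and a pair of cell-surface receptors. The rerg row, for a Ras-like GTPase that restrains growth in human breast cancer cells, was at 0.957, 1.72 and 2.36 CPM in DMSO and at 19.2, 36.3 and 33.5 CPM in RA. With 4-oxo-RA it was at 11.1, 21.9 and 16.9 CPM, far above every DMSO library. The changes were 4.12 ± 0.38 with RA and 3.28 ± 0.37 with 4-oxo-RA (edgeR adjusted p = 0.00180). The established row rerg.L did not rise, with means of 0.842 CPM in DMSO, 0.531 CPM in RA and 0.329 CPM in 4-oxo-RA. Its log2 changes of −0.62 with RA and −1.35 with 4-oxo-RA did not pass with or without the block. The somatostatin receptor gene sstr2, which encodes an inhibitory G protein-coupled receptor, had some of the tightest replicates. Its levels were 21.9, 20.4 and 23.7 CPM in DMSO, 55.3, 49.5 and 56.7 CPM in RA and 44.6, 42.3 and 43.8 CPM in 4-oxo-RA, again in separate ranges. It rose by 1.02 ± 0.14 with 4-oxo-RA (edgeR adjusted p = 0.00627).

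A Wnt receptor gene and a cell polarity gene were also higher. The Frizzled receptor gene fzd4, which serves Wnt and Norrin ligands, was at 2.13, 3.78 and 3.40 CPM in DMSO, 6.15, 13.0 and 9.16 CPM in RA and 5.94, 8.66 and 8.25 CPM in 4-oxo-RA. Each retinoid group was clear of DMSO. The 4-oxo-RA change was 1.31 ± 0.31 (edgeR adjusted p = 0.15, and 0.00156 with the replicate block). For prickle3, a member of the planar cell polarity family, DMSO values were 10.2, 5.32 and 6.52 CPM, RA values 22.5, 16.1 and 22.1 CPM and 4-oxo-RA values 19.5, 14.5 and 9.82 CPM. Here the lowest 4-oxo-RA library lay below the highest DMSO library, and the change was 1.04 ± 0.31 (edgeR adjusted p = 0.309, and 0.00916 with the block).

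Secreted proteins formed a further group. The row rarres2 is provisionally named for the gene of chemerin, a chemoattractant first found in human skin as a retinoid-induced gene. It was at 0.638, 0.575 and 0.767 CPM in DMSO, 10.9, 3.77 and 7.40 CPM in RA and 5.73, 2.83 and 5.85 CPM in 4-oxo-RA, with a rise of 2.89 ± 0.49 in the latter (edgeR adjusted p = 0.0198, and 8.22e-05 with the block). All retinoid libraries exceeded all DMSO libraries, but the call ended when any 1 DMSO library, or 4-oxo-RA replicate 1 or 3, was left out (edgeR adjusted p of 0.0722 to 0.128). The row itih6, for a relative of the heavy chains that bind hyaluronan, was at 1.06, 1.10 and 1.10 CPM in DMSO, 3.62, 3.34 and 3.10 CPM in RA and 3.38, 5.67 and 3.78 CPM in 4-oxo-RA. Its rise of 2.00 ± 0.31 with 4-oxo-RA (edgeR adjusted p = 0.0130, and 0.00178 with the block) exceeded the 1.66 ± 0.31 with RA, and the difference did not pass (log2 0.34, 95% interval −0.30 to 0.99). That call ended when any 1 DMSO library, or 4-oxo-RA replicate 2, was left out (edgeR adjusted p of 0.0566 to 0.0801). For f13b, whose product is the carrier subunit of clotting factor XIII in mammals, levels were 5.95, 4.31 and 12.6 CPM in DMSO, 18.1, 14.9 and 27.7 CPM in RA and 13.3, 17.2 and 25.4 CPM in 4-oxo-RA. The lowest retinoid value lay just above the highest DMSO value, and the 4-oxo-RA change was 1.31 ± 0.43 (edgeR adjusted p = 0.412, and 4.08e-04 with the block).

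A further 4 higher rows encode proteins held at the cell surface, and all were scarce in DMSO. The paired plaur rows, named for the receptor of urokinase, which localises plasmin activity at the cell membrane, lie next to each other in the *X. laevis* v10.1 assembly of RefSeq. Row LOC108696903 was at 0.106, 0.431 and 0.329 CPM in DMSO, 4.43, 2.47 and 2.82 CPM in RA and 4.71, 3.48 and 2.46 CPM in 4-oxo-RA. It rose by 3.5 ± 0.50 with 4-oxo-RA (edgeR adjusted p = 0.00714), a call that held without any 1 library. Row LOC108696904 had 3 counts over the DMSO group and 28 over the 4-oxo-RA group, a CPM ratio of 11.9 with an exact 95% interval of 3.68 to 61.3 that covers counting error only. Over the RA group it had 55 counts, a ratio of 21.5 (6.98 to 107). Its 4-oxo-RA rise missed the threshold without the block (edgeR adjusted p = 0.0823) and passed with it (0.0307). How reads shared by such neighbouring copies were counted is not given in the sources used here.

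The other surface genes were cd69 and cdh26. A C-type lectin receptor known as an early activation marker of lymphocytes in mammals is encoded by cd69. It had 7 counts over the DMSO group (0.213, 0.192 and 0.0548 CPM), against 5.79, 0.928 and 3.59 CPM in RA and 1.64, 0.486 and 5.98 CPM in 4-oxo-RA. Retinoid libraries varied widely but stayed above DMSO, and the 4-oxo-RA change was 4.23 ± 1.07 (edgeR adjusted p = 0.184, and 0.00948 with the block). Blood markers (hba1, hba3, gata1 and tal1) summed to 16.3 to 23.0 CPM in DMSO, 11.2 to 20.1 in RA and 12.2 to 22.3 in 4-oxo-RA, ranges that overlap. Most of the sum was tal1.S, with a mean of 15.2 CPM in DMSO. The list was not one of lymphocyte markers, so nothing about lymphocytes is read from it. The row provisionally named cdh26, a cadherin gene, had 4 counts over the DMSO group (0, 0.144 and 0.0548 CPM), with 0.814, 2.23 and 2.33 CPM in RA. With 4-oxo-RA it was at 0.614, 0.405 and 0.881 CPM, clear of DMSO, and the change of 2.94 ± 0.80 did not pass (edgeR adjusted p = 0.233, and 0.0584 with the block). The symbol was not scarce on every row, since the established row cdh26.S stood at 218 CPM in DMSO. The established row cdh26.L, which adjoins the provisional row in the RefSeq assembly, was scarce. It had means of 0.944 CPM in DMSO, 0.571 CPM in RA and 0.395 CPM in 4-oxo-RA. Its log2 changes of −0.67 with RA and −1.24 with 4-oxo-RA did not pass with or without the block.

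Enzymes and carriers made up most of the remaining higher genes. The phospholipid flippase gene atp10b was at 6.17, 8.95 and 5.53 CPM in DMSO, 29.1, 42.8 and 30.8 CPM in RA and 32.7, 30.4 and 22.7 CPM in 4-oxo-RA. Every retinoid library was far above every DMSO library. With 4-oxo-RA it rose by 2.09 ± 0.21, the smallest adjusted p among the 33 genes (edgeR adjusted p = 9.57e-04). The adaptor gene spsb3, whose SOCS-box protein brings targets to a ubiquitin ligase, was at 2.45, 3.16 and 3.23 CPM in DMSO, 10.4, 13.8 and 15.0 CPM in RA and 10.4, 9.15 and 8.5 CPM in 4-oxo-RA. It rose by 1.69 ± 0.23 with 4-oxo-RA (edgeR adjusted p = 0.00620), and this call and that of atp10b held without any 1 library.

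Other genes of this group were less abundant. The gene tiparp, for a mono-ADP-ribosyltransferase, was at 1.59, 1.01 and 1.92 CPM in DMSO, 6.15, 3.59 and 5.15 CPM in RA and 3.58, 3.64 and 2.52 CPM in 4-oxo-RA. All retinoid libraries exceeded DMSO, but the 4-oxo-RA change of 1.13 ± 0.37 did not pass (edgeR adjusted p = 0.424, and 0.0839 with the block). The fabp6 row belongs to the family of intracellular lipid-binding proteins that also holds the cellular RA-binding proteins, and in mammals fabp6 carries bile acids. It was at 0.638, 0.958 and 1.86 CPM in DMSO, 2.35, 2.66 and 7.54 CPM in RA and 1.95, 2.27 and 6.42 CPM in 4-oxo-RA, with replicate 3 highest throughout. The 4-oxo-RA change was 1.63 ± 0.65 (edgeR adjusted p = 0.661, and 0.00856 with the block). For trex2, a DNA 3′ exonuclease gene, values were 0.957, 0.239 and 0 CPM in DMSO, 2.98, 1.42 and 0.564 CPM in RA and 2.15, 0.567 and 0.315 CPM in 4-oxo-RA. Its groups overlapped and its 4-oxo-RA change of 1.54 ± 1.12 did not pass with or without the block.

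Both sel1l3 rows belong to genes of a little-studied membrane protein family. Row LOC108710096 was at 0.319, 0.383 and 0.274 CPM in DMSO, 2.71, 2.10 and 3.10 CPM in RA and 1.33, 1.46 and 1.39 CPM in 4-oxo-RA. These were 3 separate ranges, and the 4-oxo-RA change was 2.10 ± 0.42 (edgeR adjusted p = 0.0549, and 0.0230 with the block). Row LOC108708799 was at 1.17, 0.239 and 0.548 CPM in DMSO, 3.62, 1.11 and 1.76 CPM in RA and 3.69, 0.728 and 0.818 CPM in 4-oxo-RA. Its groups overlapped, replicate 1 was highest in each, and the 4-oxo-RA change of 1.51 ± 0.81 did not pass with or without the block. Far more abundant was the established row sel1l3.S, with means of 37.1 CPM in DMSO, 37.8 CPM in RA and 37.5 CPM in 4-oxo-RA. Log2 changes of sel1l3.S were 0.07 with RA and 0.05 with 4-oxo-RA, and neither passed with or without the block.

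Among the 10 lower genes the largest log2 change with RA belonged to vgll3, which encodes a cofactor of TEAD transcription factors. It went from 17.1, 13.6 and 8.71 CPM in DMSO to 0.271, 0.186 and 0.423 CPM in RA and 1.13, 0.0809 and 0.567 CPM in 4-oxo-RA. No retinoid library came near a DMSO library. The changes were −5.40 ± 0.62 with RA and −4.45 ± 0.58 with 4-oxo-RA (edgeR adjusted p = 0.00449), and the 4-oxo-RA call held without any 1 library. The cation channel gene trpm1, known from melanocytes and retinal bipolar cells in mammals, went from 2.23, 3.06 and 1.64 CPM to 0.362, 0.124 and 0.0705 CPM with RA. In the 4-oxo-RA group it had 3 counts against 115 in DMSO, a CPM ratio of 0.0333 with an exact 95% interval of 0.00677 to 0.0998 that covers counting error only. That fall passed (edgeR adjusted p = 0.0176, and 0.00152 with the block), but without the block not with any 1 DMSO library, or 4-oxo-RA replicate 1 or 3, left out (edgeR adjusted p of 0.0522 to 0.122).

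A pair of secreted ligands were lower. The growth factor gene fgf16, of the FGF9 subfamily, was steady in DMSO at 8.51, 8.33 and 9.04 CPM, and stood at 3.62, 0.681 and 0.211 CPM in RA and 2.35, 0.971 and 0.693 CPM in 4-oxo-RA. Replicate 1 kept the highest level in both retinoid groups, which did not overlap with DMSO. The change was −2.54 ± 0.74 with RA and −2.69 ± 0.75 with 4-oxo-RA (edgeR adjusted p = 0.255, and 0.00243 with the block). A Wnt ligand of the embryonic forebrain and midbrain is the product of wnt8b. It was at 3.83, 8.38 and 4.49 CPM in DMSO, 1.36, 0.990 and 0.211 CPM in RA and 2.56, 2.83 and 0.315 CPM in 4-oxo-RA, without overlap with DMSO. Its 4-oxo-RA change of −1.55 ± 0.69 had an edgeR adjusted p of 0.777, and 0.0468 with the block.

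Genes for enzymes of the extracellular matrix and for membrane proteins were also lower with RA. The membrane-anchored metalloprotease gene mmp14 was at 23.9, 22.9 and 9.09 CPM in DMSO, 5.52, 8.97 and 3.66 CPM in RA and 9.52, 15.0 and 5.23 CPM in 4-oxo-RA. Replicate 3 was lowest throughout, the 4-oxo-RA range overlapped with DMSO, and the change was −0.87 ± 0.43 (edgeR adjusted p = 0.883, and 0.0139 with the block). The secreted metalloprotease gene adamts8 was at 8.51, 9.0 and 7.61 CPM in DMSO, 2.89, 3.03 and 2.26 CPM in RA and 2.87, 5.02 and 2.20 CPM in 4-oxo-RA, clear of DMSO in both. With 4-oxo-RA it changed by −1.28 ± 0.30 (edgeR adjusted p = 0.128, and 0.00699 with the block). The ABC transporter gene abcb5 was at 19.8, 17.7 and 17.7 CPM in DMSO, 5.34, 8.17 and 7.19 CPM in RA and 9.01, 13.4 and 7.18 CPM in 4-oxo-RA. Neither retinoid group overlapped with DMSO, and the 4-oxo-RA change was −0.86 ± 0.23 (edgeR adjusted p = 0.231, and 0.0217 with the block). For adrb1, a beta-adrenergic receptor gene, values were 0.744, 2.25 and 1.53 CPM in DMSO, 0, 0.681 and 0.423 CPM in RA and 0.307, 0.647 and 0.378 CPM in 4-oxo-RA, and the 4-oxo-RA change of −1.73 ± 0.78 did not pass with or without the block.

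The last pair of lower genes had high levels in different replicate numbers. The msmb row, for a small secreted protein abundant in human seminal fluid, was at 37.3, 24.5 and 50.3 CPM in DMSO and at 9.41, 6.99 and 13.3 CPM in RA. With 4-oxo-RA it was at 10.4, 10.8 and 33.7 CPM, so that replicate 3 lay within the DMSO range, and the change was −0.98 ± 0.47 (edgeR adjusted p = 0.864, and 0.00300 with the block). The gene actn3, for an alpha-actinin of fast muscle fibres, was at 22.2, 8.57 and 1.59 CPM in DMSO, 9.13, 1.36 and 0.493 CPM in RA and 11.8, 2.43 and 4.60 CPM in 4-oxo-RA. All groups overlapped, and the 4-oxo-RA change of −0.71 ± 1.00 did not pass with or without the block. The summed muscle markers moved in the same order, at 307, 108 and 25.1 CPM in DMSO, 198, 17.5 and 8.81 CPM in RA and 207, 48.6 and 64.7 CPM in 4-oxo-RA, and their part in the actn3 values was not tested.

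Counted together, 10 of the 23 higher genes rose with 4-oxo-RA (edgeR adjusted p below 0.05), beside 0.625% of all genes tested, and 0 fell. Of the 10 lower genes 2 fell, vgll3 and trpm1, beside 0.111% of all genes. Both needed DMSO libraries, which the rule used, to pass the filter on low counts. With the replicate block the counts were 19 of 23 and 8 of 10, beside 2.05% and 1.31%. The log2 changes with 4-oxo-RA ran from 1.02 to 4.24 in the higher genes (median 1.69) and from −4.69 to −0.71 in the lower ones (median −1.42), beside a median of 0.0001 over all genes. The 4-oxo-RA libraries were clear of DMSO in 19 of the 23 and 7 of the 10, which held for 3.99% and 6.39% of the 1878 eligible rows at 1 CPM or more. The fold rule applied to 4-oxo-RA was met by 10 of the 23 and 3 of the 10, beside 0.586% and 0.213% of those 1878 rows. The DMSO libraries are those the rule used, so a row that was by chance low or high in DMSO would lean the same way here.

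**Figure D2:**
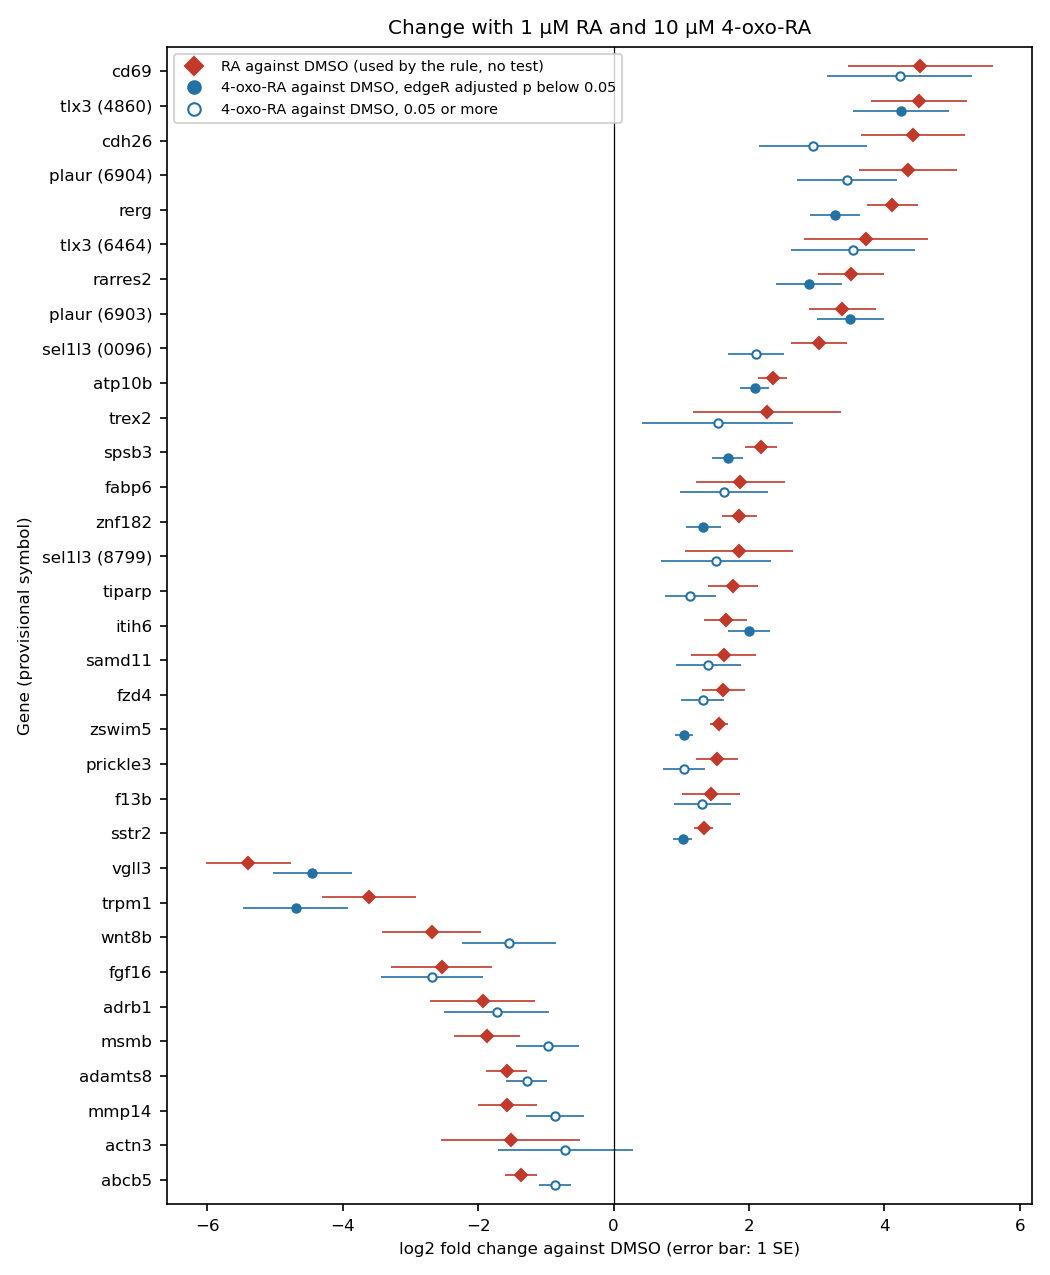
Log2 fold change of each gene against DMSO with 1 SE, for 1 µM RA (red diamonds) and 10 µM 4-oxo-RA (blue circles, filled where the edgeR adjusted p was below 0.05). All 33 blue circles lie on the same side of 0 as the red diamonds, and 12 are filled.

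The 2 retinoids were also compared directly, at their different doses. None of the 33 genes passed (edgeR, 0 of 23 and 0 of 10, beside 0% of all genes in either direction), and DESeq2 and limma-voom called 0 as well. At an unadjusted p below 0.05 stood 6 of the 23, all lower with 4-oxo-RA, and 0 of the 10, beside 532 of the 20811 genes in either direction. They were cdh26 (−1.48, 95% interval −2.85 to −0.11), sel1l3 LOC108710096 (−0.93, −1.74 to −0.12), rerg (−0.84, −1.54 to −0.14), zswim5 (−0.51, −0.80 to −0.22), spsb3 (−0.49, −0.97 to −0.01) and sstr2 (−0.31, −0.62 to −0.00). With the replicate block rerg passed, at −0.84 ± 0.15 (edgeR adjusted p = 0.0426), beside 0.135% of all genes called lower and 0.024% called higher. The 4-oxo-RA libraries lay wholly below RA in 3 of the 23 (sstr2, zswim5 and sel1l3 LOC108710096), beside 3.3% of the 1878 rows, and wholly above RA in 0 of the 10, beside 2.24%. The choice of the genes by their RA values favours RA in this comparison. The intervals were wide for scarce genes, such as −2.09 to 1.48 for cd69 and −3.14 to 0.99 for trpm1, so that they included differences in either direction.

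The filter on low counts also bore on these counts. With no filter 18 of the 23 rose and 5 of the 10 fell with 4-oxo-RA, beside 0.713% and 0.386% of 41216 genes. In RA against DMSO, which the rule used, the counts were then 21 and 9, beside 1.17% and 0.849%. Between the retinoids 0 passed, beside 0.0485% higher and 0.0631% lower with 4-oxo-RA. With the replicate block and no filter, a setting added after the data were seen, 21 and 8 passed with 4-oxo-RA, beside 1.52% and 1.2%, and 23 and 10 with RA, beside 2.22% and 2.41%. Between the retinoids 2 of the 23 were then lower with 4-oxo-RA, beside 0.311%, and 2 of the 10 higher, beside 0.391%.

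Levels also differed between replicate numbers within a treatment. In 12 of the 33 genes the same replicate number was highest in all 3 treatments, as it was in 35.8% of eligible rows at 1 CPM or more. Replicate 1 held that place in samd11, prickle3, trex2, actn3, tlx3 LOC108706464 and sel1l3 LOC108708799, replicate 2 in fzd4, adamts8 and adrb1, and replicate 3 in f13b, fabp6 and msmb. In actn3 the highest library held 14.0 times the CPM of the lowest in DMSO, 18.5 times in RA and 4.85 times in 4-oxo-RA. In tlx3 LOC108706464 the same ratio was 37.7 in DMSO, where the lowest library had 1 count, 2.59 in RA and 4.45 in 4-oxo-RA.

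**Figure D3:**
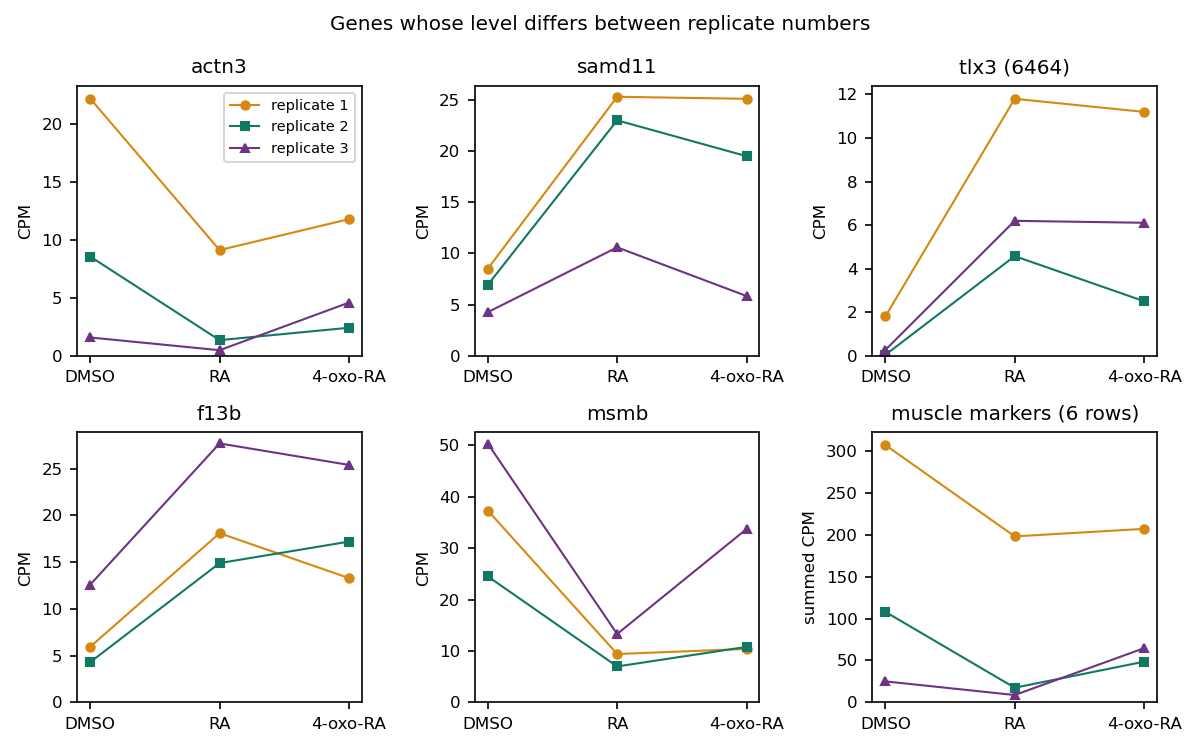
CPM by treatment for 5 genes with different levels between replicate numbers, and the summed CPM of 6 rows for muscle markers; each line joins libraries with the same replicate number. Replicate 1 is highest in actn3, samd11, tlx3 and the muscle markers in every treatment, and replicate 3 in f13b and msmb.

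A provisional symbol often stood on several rows. The 33 genes carry 30 symbols, of which 29 also stand on another row of the table, 60 other rows in all. Only 25 of these, for 20 symbols, had enough counts to be tested. The rule judged 9 of them, which are provisional LOC rows too, and did not keep them, so their RA values bear the mark of the choice and are not counted here. The other 16 lay outside the rule. Of the 12 outside rows for higher genes 1 rose with RA, zswim5.S, beside 1.22% of all genes, and 0 fell. With the block 3 rose (zswim5.S, samd11.S and cdh26.S) and tlx3.L fell, beside 3.5% and 3.17%. Of the 4 outside rows for lower genes 1 fell, wnt8b.S, beside 0.456%, and with the block 3 did (wnt8b.S, adamts8.L and actn3.L). The median log2 change with RA was 0.06 over the 12 and −1.44 over the 4.

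Other rows of zswim5 and wnt8b passed. The established row zswim5.S went from 34.6 ± 3.61 to 79.6 ± 9.43 CPM with RA (SD, n = 3 libraries), a rise of 1.25 ± 0.15 (edgeR adjusted p = 0.00110), and rose by 0.78 with 4-oxo-RA (edgeR adjusted p = 0.0398). For wnt8b.S the change with RA was −1.62 ± 0.33 (edgeR adjusted p = 0.0358). The log2 change of mmp14.L, also outside the rule, was −0.06 ± 0.26, and it stood at 131 CPM in DMSO. The row tlx3.L went the other way from both provisional tlx3 rows, with −2.14 ± 0.56 (edgeR adjusted p = 0.113, and 0.00204 with the block), from 3.68 to 0.820 CPM. Because the provisional symbol of that pair may be wrong, tlx3.L may be a different gene. Differences between rows of a symbol were not tested.

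**Figure D4:**
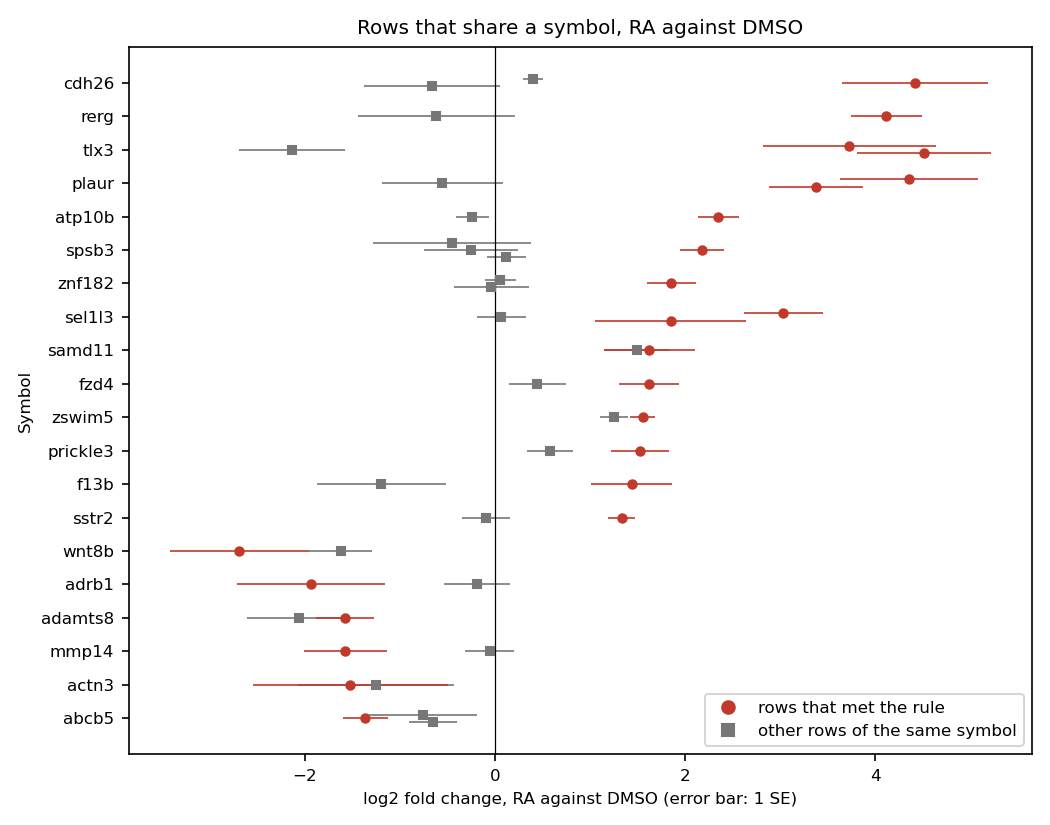
Log2 fold change with RA, with 1 SE, of rows that met the rule (red circles) and of other tested rows with the same symbol (grey squares), for 20 symbols. Grey squares lie on the same side of 0 as the red circles and beyond 1 on the log2 scale for samd11, zswim5, wnt8b, adamts8 and actn3. The rule also judged and did not keep 9 of the rows drawn as grey squares.

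Neighbouring genes were looked up in the RefSeq assembly v10.1, where 31 of the 33 identifiers were found, each still without an established symbol. Those of rarres2 and trpm1 were not found there. Because the build behind the counts is not given in the sources used here, the lookup gave gene order alone. The msmb, tiparp, fabp6 and cdh26 rows adjoin rows of their own symbol that are no members. How reads shared by these copies were counted is not given either. Besides the adjoining plaur rows, 25 next neighbours were tested that are no members. Of these 1 rose with RA, mig30.L, beside 1.22% of all genes, and 0 fell, beside 0.456%. With the block mig30.L, mig30.S and mrpl21.L rose and sp8.S fell, beside 3.5% and 3.17% of all genes. Both mig30 copies adjoin a tlx3 row, and the next gene beyond is pcgf1 in each case. The row mig30.L rose by 2.49 with RA (edgeR adjusted p = 0.0112) and by 2.21 with 4-oxo-RA (edgeR adjusted p = 0.0360). For mig30.S the values were 2.12 and 1.46 (edgeR adjusted p = 0.0714 and 0.472, and 0.00145 and 0.0456 with the block). The 2 provisional tlx3 rows thus lie beside L and S copies of the same genes. Within 3 genes of LOC108704860 also lie dqx1.L and a row provisionally named lbx1, and within 3 genes of LOC108706464 lies aup1.S. Separate rows tlx3.L and tlx3.S were also counted. Which gene the pair represents is uncertain and was not tested.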

How the data were processed

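All 9 libraries, 3 per treatment, were analysed from the table the authors deposited, which holds raw read counts (whole, not normalized); the per-library tables hold the same values. Alignment used STAR 2.7.3, per the submitters' processing notes, and the kit was stranded, per the labels' protocols. The counter, build and annotation are not given in the sources used here. Group and replicate number came from the sample titles.

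CPM were counts divided by the column total. Tests used edgeR 4.0.16 in R 4.3.3 (quasi-likelihood, TMM, its default expression filter, treatment as the only factor, 1 fit), with Benjamini-Hochberg adjustment over 20811 genes and calls at an adjusted p below 0.05; the code was tested on simulated data. Same-numbered libraries shared their deviations from the group mean (r of 0.434 to 0.536 in 9 pairs, other numbers −0.326 to −0.132), so the numbers were taken to pair libraries. That pairing comes from the data, not the labels. Replicates of a group were not duplicates (chi-square/df of 14.3 to 21.6). For DMSO a group count of 0 allows 3 counts, or 0.0618 CPM; the limit was 0.0724 CPM for RA and 0.0789 for 4-oxo-RA. Such limits cover counting error only.

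The genes, lists and tests were chosen with earlier results of these data known. All 33 genes are described, which covers the naming rule (largest rule folds, highest levels, calls between the retinoids, smallest 4-oxo-RA changes). Neighbours and other rows of a symbol were named after their values were seen. Results were recomputed with DESeq2 1.42.0, limma-voom (limma 3.58.1), RLE scaling, other filters, 2-group fits, the replicate block, a stricter threshold, single libraries left out and other settings of the rule.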

Additional observations from a re-analysis of the deposited data

How the results depend on the processing

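Counts of the 33 genes called with 4-oxo-RA against DMSO (10 higher, 2 lower) depended most on the filter and on the replicate block. They were 19 and 8 with the block, 18 and 5 with no filter on low counts, 21 and 8 with both (an alternative added after the data were seen), 6 and 0 with at least 10 counts in every library, and 6 and 1 at an adjusted p below 0.01. DESeq2 called 5 lower genes. Without single libraries between 6 and 9 higher and between 1 and 3 lower genes were called, the fewest higher genes (6) without DMSO replicate 2. Lower genes fell to 1 without DMSO replicate 1, 2 or 3 or 4-oxo-RA replicate 1 or 3. For RA against DMSO (16 and 4, described only) the counts were 9 and 2 with at least 10 counts in every library and 10 and 1 at the stricter threshold, and from 10 to 17 and from 1 to 6 without single libraries, with 10 higher genes without DMSO replicate 2, and 1 or 2 lower genes without any 1 DMSO library or RA replicate 2 or 3. Lower genes called numbered 7 with DESeq2, 9 with no filter, 9 with the block and 10 with the block and no filter. For 4-oxo-RA against RA the block gave 1 higher gene called lower with 4-oxo-RA. With the block and no filter 2 higher genes were called lower and 2 lower genes called higher with 4-oxo-RA, against 0 in every other fit. Shares of all genes are given above for the main fit, the block, no filter, and both together. For the other settings no share is given, so nothing particular to these genes is read from those counts.

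The rule kept 23 and 10 genes. A fold of 1.5 gave 46 and 53, a fold of 3 gave 6 and 3, and all 9 RA by DMSO pairs gave 15 and 6. The same thresholds on 4-oxo-RA gave 11 and 4. No pseudocount gave 22 lower genes. With the pairs of 2 replicate numbers only, from 27 to 32 were higher and from 15 to 38 lower, the latter 38 without replicate 1. Shares of all rows are not given for other folds, pairs or pseudocounts, so nothing particular to these genes is read from them. Among single genes, no call of 4-oxo-RA against DMSO changed sign in any fit. Of the 537 alternative values for 4-oxo-RA against DMSO, 453 kept direction and call, 53 gained and 30 lost a call, and 1 uncalled value changed sign. The same counts for 4-oxo-RA against RA were 506, 5, 0 and 26. Values for RA against DMSO were not counted in this way. Scarce genes set the limit of depth: cd69, cdh26, plaur LOC108696904 and tlx3 LOC108704860 had 7, 4, 3 and 4 counts over the DMSO group.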
